A study of Mus musculus with 8 samples.

Results

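The 39 genes described here encode the Polycomb repressive complexes and the enzymes and readers of histone lysine methylation. The co-repressor Trim28 and the arginine methyltransferase Prmt5 are included with them. They were chosen by gene symbol, and all 39 were found among the 20153 gene identifiers of the deposited table. The rule uses no measured value, but the genes were chosen with earlier results of these data known. They comprise 7 genes of Polycomb repressive complex 2 (PRC2), 10 of Polycomb repressive complex 1 (PRC1), and 9 linked to histone H3 lysine 9 (H3K9) methylation. Those H3K9 genes are writers and readers of the mark together with Trim28. The rest are 9 lysine demethylases and 4 genes linked to H3K4, H3K36 or arginine methylation. Levels are in FPKM, fragments counted per kilobase of transcript and scaled to the library's total, a scale corrected for transcript length so that genes can be set beside each other.

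The study sequenced RNA from mouse primordial germ cells (PGCs) and from 3 cultured counterparts, with 2 libraries in each of the 4 groups. The E9.5 PGCs were taken from embryos of the Oct4gfpXCD1 strain at embryonic day 9.5 without passage, at about 250 cells a library. The iPGCs were made by hanging-drop differentiation of embryonic stem cells of the BVSC strain (passage 21, 1500 cells), and the PGCLCs from stem cells of the same strain and passage by way of epiblast-like cells in aggregates (300 to 500 cells). The embryonic germ cells (EGCs) were lines 4 and 7, derived from sorted E9.5 PGCs of the Oct4gfpXCD1 strain and grown in serum and LIF on fibroblast feeders to passage 6 (500 cells). The labels name no deletion and no drug treatment. PGCs and EGCs share a strain and iPGCs and PGCLCs another, and source and passage also differ with the groups, so these cannot be told apart from cell type, and each EGC library is a single line.

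PRC2 places methyl groups on H3K27 through its catalytic subunit Ezh2 or Ezh1, which needs the core partners Eed and Suz12, while Jarid2, Mtf2 and Phf19 are accessory proteins that help bring the complex to chromatin. PRC1 ubiquitinates histone H2A through Rnf2 or Ring1, a Pcgf partner, and in its canonical form a Cbx protein that binds methylated H3K27 and a Phc protein. Primordial germ cells are known for remodelling their chromatin as they migrate, with a global fall in H3K9 dimethylation and a gain of H3K27 trimethylation, so the enzymes of both marks are a common point of comparison for germ cells made in culture.

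In short, the 39 genes were nearly all expressed in the 4 groups, and none differed between groups past the threshold used. Between 0.018% and 1.06% of all tested genes did so in the pairwise comparisons. The genes nearest to the threshold were Suz12, higher in iPGCs and PGCLCs than in E9.5 PGCs, and Phc1, higher in EGCs than in E9.5 PGCs. Of the 39, 38 reached 1 FPKM in at least 2 libraries and were tested with limma on log2(FPKM + 1) over 11083 genes, with p-values adjusted by Benjamini-Hochberg and a threshold of 0.05. The exception was Cbx8, a PRC1 chromodomain protein, which was listed at 0 in 6 libraries and at 0.0404 FPKM in PGC library 1 and 0.0209 FPKM in iPGC library 2.

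The libraries were not equal in depth or in purity. The lowest values above 0 in each library put the depth at roughly 14190000 to 15870000 reads in 6 libraries, 7530000 reads in PGCLC library 1 and 2720000 reads in iPGC library 1; the files give no read counts, so these are approximations. PGC library 1 also carried genes of other cell types: 6 of the 6 measured macrophage and blood markers reached 1 FPKM (summed 120.3 FPKM, against 5.74 in PGC library 2 and at most 0.544 elsewhere), as did 4 of 6 yolk sac endoderm markers (146.7 FPKM, against 0.606 in PGC library 2). Mesoderm markers summed to 41.66 FPKM there and fibroblast markers to 11.95 FPKM, the highest of the 8 libraries for both. In PGC library 2 they summed to 0.0518 and 0.896 FPKM. T alone, at 37.91 FPKM, made up most of the mesoderm sum of PGC library 1. Hand1 was at 3.755 FPKM in that library against 10.47 FPKM in PGCLC library 2, and Mixl1 and Mesp1 were at 0. Only 2 of the 4 mesoderm markers reached 1 FPKM in it, as in iPGC library 1 and both PGCLC libraries. Germ cell markers summed to between 426.1 and 907.3 FPKM in the PGC, iPGC and PGCLC libraries and to 63.0 and 126.7 FPKM in the EGCs. Dppa3 made up most of each sum, at 317.1 to 725.9 FPKM and at 40.3 and 100.6 FPKM in turn. Kit, Tfap2c, Prdm1 and Prdm14 were also lower in both EGC libraries than in all others. Dazl, Ddx4, Dnd1 and Nanos3 did not separate the EGCs in this way. Dazl was at 0 and 0.156 FPKM in PGCs against 1.12 and 0.805 FPKM in EGCs. Fibroblast markers, which would mark the feeders, summed to 0.977 and 4.29 FPKM in the EGC libraries. Thy1 made up most of this, at 0.963 and 3.56 FPKM, the latter its highest value of the 8 libraries. Twist1 was at 0 and 0.729 FPKM and the collagen Col1a1 at 0.0142 and 0 FPKM. Gut endoderm markers summed to 125.4 and 106.8 FPKM in iPGCs and to at most 41.19 FPKM elsewhere. Only 2 of these 5 markers reached 1 FPKM in each iPGC library, Cldn6 (64.7 and 73.2 FPKM) and Spink3 (60.3 and 32.8 FPKM). The endoderm factors Foxa1, Foxa2 and Sox17 were at 0.528 FPKM or less there. Neural markers summed to 46.57 and 33.38 FPKM in EGCs and at most 20.41 FPKM elsewhere. The part these features play in the member values was not tested, and the main differences from PGCs are given also without PGC library 1. In bulk libraries, fewer cells of a type and less RNA per cell cannot be told apart. The design text calls the replicates biological.

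**Figure D1:**
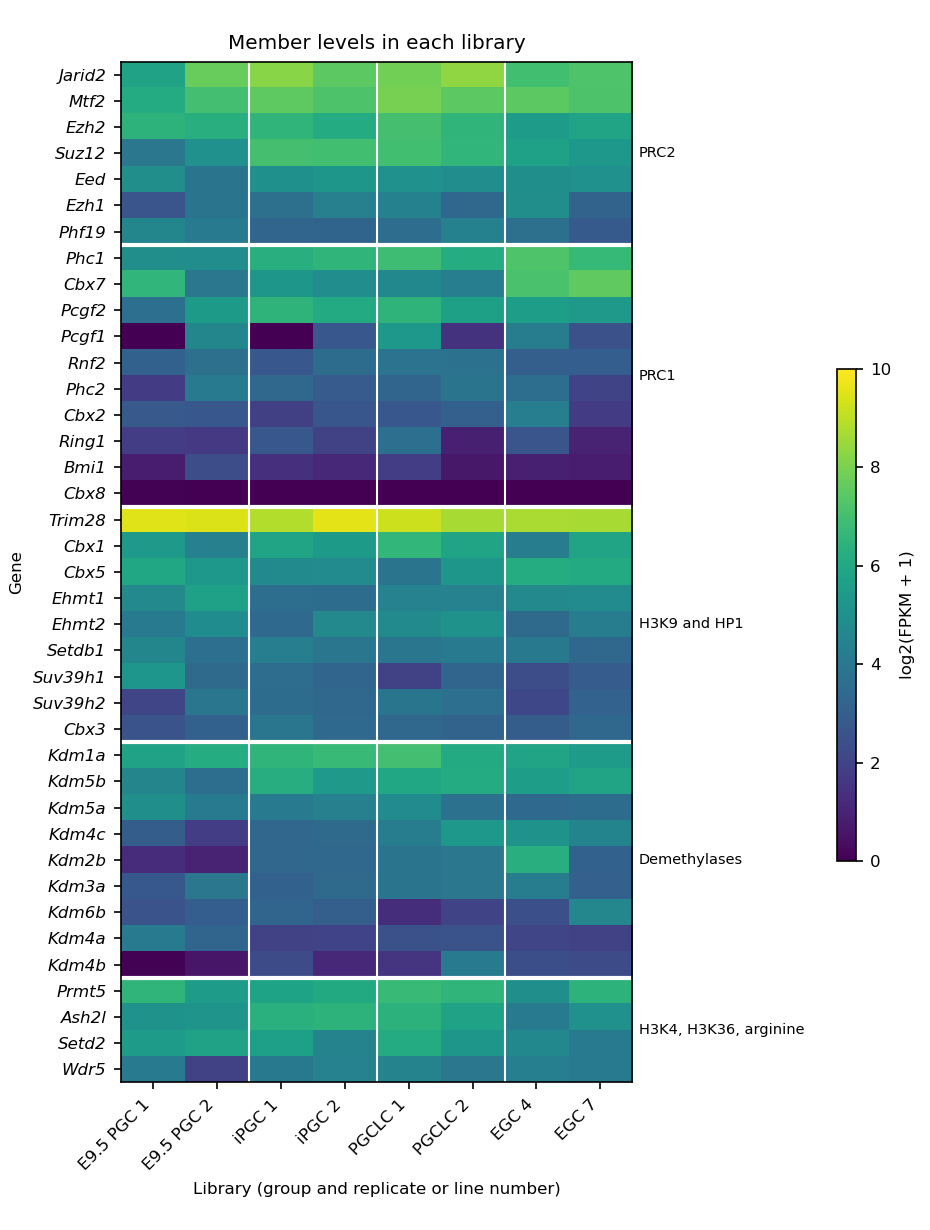
Level of each of the 39 genes as log2(FPKM + 1) (colour) in each of the 8 libraries (columns), with genes in rows ordered by class. Trim28 has the highest level in every library and Cbx8 is at or near 0 throughout.

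Levels spanned a wide range among the genes. Trim28, the co-repressor that brings H3K9 methyltransferases to retroelements, had the highest level of the 39 in every library, from 409 to 764 FPKM, and its mean lay at the 99.9th percentile of the tested genes. By the mean over all 8 libraries, the next most abundant were the PRC2 accessory genes Jarid2 (53.1 to 319 FPKM) and Mtf2 (70.8 to 245 FPKM). At the low end, apart from Cbx8, Bmi1 ranged from 0.576 to 4.18 FPKM and Ring1 from 0.838 to 11.7 FPKM. The summed level of the 7 PRC2 genes was 284.1 and 486.7 FPKM in the PGC libraries, 752.1 and 583.4 FPKM in iPGCs, 795.0 and 743.7 FPKM in PGCLCs, and 467.0 and 438.5 FPKM in EGCs. These PRC2 sums were higher in the 4 iPGC and PGCLC libraries than in the 4 others, and the PGC and EGC libraries overlapped. The median log2(FPKM + 1) of all tested genes divided the libraries in the same way. It was 2.869 to 3.021 in the iPGC and PGCLC libraries and 2.355 to 2.561 in the PGC and EGC libraries, so a division of this kind is not particular to PRC2. The PRC2 genes were also ranked among the tested genes of each library. Their median percentile was 95.5 to 97.1 in the iPGC and PGCLC libraries, 93.7 and 92.9 in EGCs, and 88.1 and 87.8 in PGCs. The part that the shift of all genes plays in the PRC2 sums was not tested. For the 10 PRC1 genes the sum was lowest in PGCs (149.6 and 155.5 FPKM) and highest in EGCs (349.5 and 399.9 FPKM). Cbx7 (139 and 186 FPKM) and Phc1 (153 and 103 FPKM) made up most of the EGC sums. The median of the 10 genes did not follow this order, at 4.22 and 13.3 FPKM in PGCs and 14.5 and 3.86 FPKM in EGC lines 4 and 7.

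Promoter sequence is shown for 3 of the genes whose PGC libraries stood apart from all 6 cultured ones, as the genomic context of the values below. Suz12 and Kdm5b were higher in culture and Kdm4a was lower, and each window holds the 200 bases from 230 to 31 before the annotated start, read 5′ to 3′ on the gene's strand from RefSeq promoters (GRCm38.p6). These were the genes of that kind with a single RefSeq promoter entry and no annotated exon in the window. Capitals mark the only match found.
Suz12: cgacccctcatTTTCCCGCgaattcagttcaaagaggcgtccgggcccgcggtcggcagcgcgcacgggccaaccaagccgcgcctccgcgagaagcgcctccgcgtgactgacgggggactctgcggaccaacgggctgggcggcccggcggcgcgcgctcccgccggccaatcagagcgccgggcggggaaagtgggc
Kdm5b: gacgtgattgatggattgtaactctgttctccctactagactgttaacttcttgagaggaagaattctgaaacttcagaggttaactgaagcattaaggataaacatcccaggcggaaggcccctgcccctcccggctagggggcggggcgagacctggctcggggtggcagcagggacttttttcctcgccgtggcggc
Kdm4a: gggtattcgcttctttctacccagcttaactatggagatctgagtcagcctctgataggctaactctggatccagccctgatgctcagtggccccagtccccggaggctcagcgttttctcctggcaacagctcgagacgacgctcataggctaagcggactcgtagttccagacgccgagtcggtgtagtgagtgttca
The Suz12 window (chr11:79992876-79993075, plus strand) holds 32 CpG dinucleotides, at the 98.8th percentile of 32851 RefSeq promoter windows of this length, whose median is 4. The Kdm5b window (chr1:134559948-134560147, plus strand) holds 9 CpG and the Kdm4a window (chr4:118180074-118180273, minus strand) holds 11. Both strands were searched for an ETS motif (CCGGAAG, in 4.77% of all windows), an E2F motif (GCGGGAAA, in 0.749%), an E-box (CACGTG, in 4.74%) and an NRF1 motif (GCATGCGC, in 1.62%). One match was found, an E2F motif on the minus strand of the Suz12 window starting 219 bases before the start; this is a description of the letters and not a binding site.

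Among the PRC2 genes, Suz12, the core subunit that holds the complex together, set the cultured PGC-like cells furthest apart from E9.5 PGCs. Suz12 (GRCm38 chr11:79993106-80034123) was at 14.4 and 32.4 FPKM in PGCs, 131 and 125 FPKM in iPGCs, 124 and 96.1 FPKM in PGCLCs, and 51.1 and 39.4 FPKM in EGCs. Both PGC libraries were below every cultured library, and both EGC libraries lay between the PGC and the iPGC and PGCLC libraries. The log2 difference of iPGCs from PGCs was 2.50 ± 0.47 (SE; 95% interval 1.43 to 3.57; limma adjusted p = 0.0577), and that of PGCLCs was 2.28 ± 0.47 (adjusted p = 0.0613). The median log2 difference over all tested genes was 0.47 for iPGCs and 0.44 for PGCLCs, so that Suz12 differed by 2.04 and 1.84 relative to it; for EGCs the median over all genes was 0.07. The EGC difference of Suz12 from PGCs was 1.02 ± 0.47 (adjusted p = 0.317), against 0.46 without PGC library 1 and 1.57 without PGC library 2. Without PGC library 1 the Suz12 differences from PGCs were 1.95 for iPGCs (adjusted p = 0.0928) and 1.72 for PGCLCs (adjusted p = 0.107), and without PGC library 2 they were 3.06 (adjusted p = 0.0262) and 2.84 (adjusted p = 0.0304). The size of the Suz12 difference thus depends on which PGC library is kept, library 1 being the one with blood and yolk sac markers. With both PGC libraries kept, the iPGC difference of Suz12 passed the threshold under 2 other settings. These were a pseudocount of 0.1 (limma adjusted p = 0.0466) and a filter at 5 FPKM in at least 2 libraries (adjusted p = 0.0483).

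The other core PRC2 genes did not show this pattern. Ezh2, the main H3K27 methyltransferase of proliferating tissue, was at 87.5 and 79.3 FPKM in PGCs, 91.4 and 69.2 FPKM in iPGCs, 130 and 92.2 FPKM in PGCLCs, and 44.8 and 56.9 FPKM in EGCs. Its EGC libraries were the lowest of the 8 and its PGCLC libraries the highest, with a log2 difference of EGCs from PGCLCs of -1.10 ± 0.39 (limma adjusted p = 0.291) and of EGCs from PGCs of -0.71 ± 0.39 (95% interval -1.61 to 0.19). For iPGCs against PGCs the Ezh2 difference was -0.07, with a 95% interval of -0.96 to 0.83, which leaves room for a change of either sign. Eed, which binds the methylated histone tail, lay between 13.4 and 38.1 FPKM, and Ezh1, the second catalytic subunit, between 5.23 and 29.9 FPKM with overlapping groups.

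Of the PRC2 accessory genes, Mtf2 was lower in both PGC libraries (70.8 and 129 FPKM) than in all 6 cultured libraries (146 to 245 FPKM), with a PGCLC difference from PGCs of 1.12 ± 0.41 (limma adjusted p = 0.186). Jarid2 was at 53.1 and 202 FPKM in the PGC libraries alone, a spread that covers both EGC libraries and 1 of the 2 iPGC libraries. Phf19, a reader of methylated H3K36, had the opposite order for iPGCs, at 23.1 and 16.7 FPKM in PGCs against 8.66 and 8.29 FPKM in iPGCs, 10.8 and 20.1 FPKM in PGCLCs, and 11.9 and 6.18 FPKM in EGCs. No PRC2 gene passed the threshold in any comparison with limma, and at an unadjusted p under 0.05 the 7 genes gave 0 hits for EGCs, 1 for iPGCs and 3 for PGCLCs against PGCs, where 17.2%, 19.5% and 19.5% of all tested genes had such a p.

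**Figure D2:**
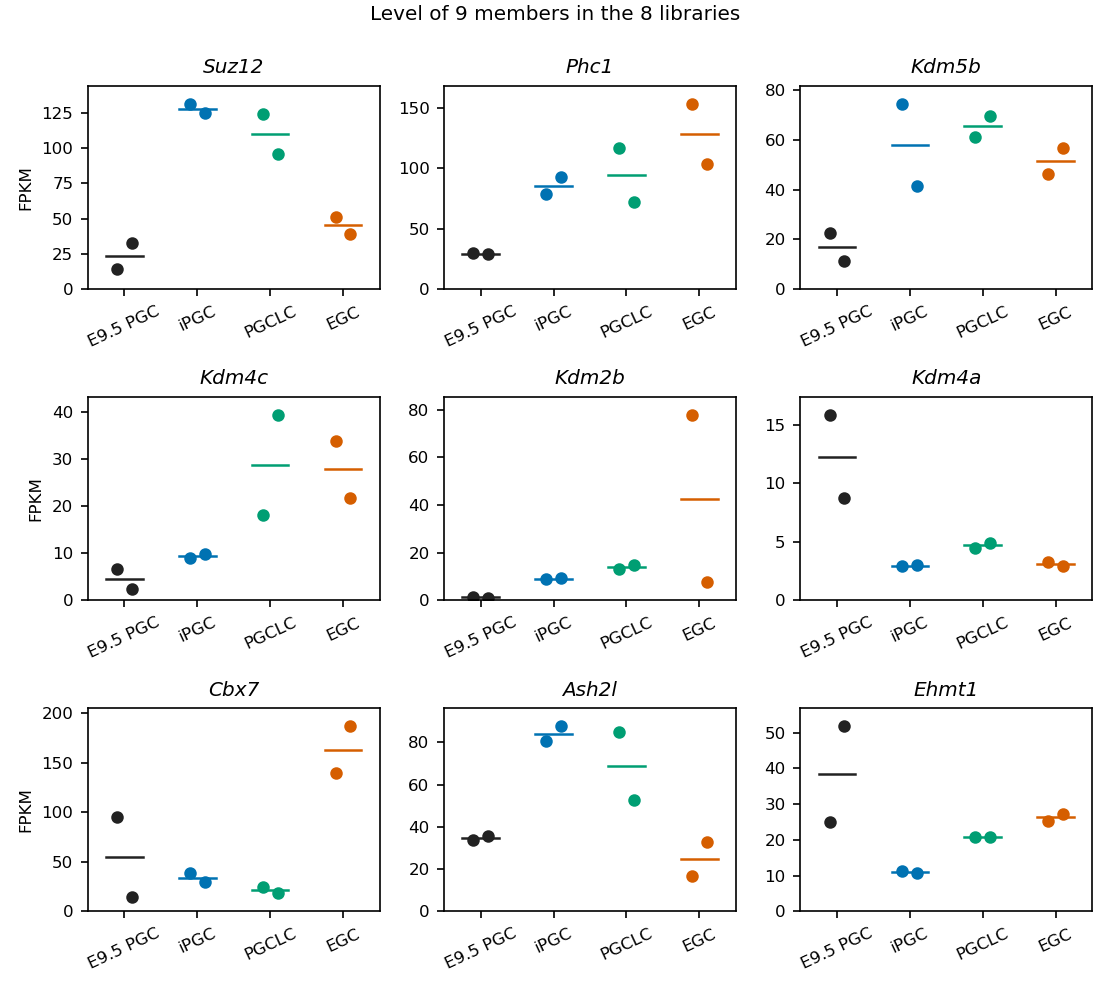
FPKM (y axis, from 0) of 9 genes in the 4 groups (x axis); points are libraries and the line is the mean of the 2 libraries. Suz12, Phc1, Kdm5b, Kdm4c and Kdm2b have both PGC points below all cultured points and Kdm4a has both above, while the 2 PGC points of Cbx7 and of Ehmt1 lie far apart.

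Among the PRC1 genes, Phc1, a polymerising subunit of canonical PRC1, had close replicates in PGCs. Phc1 (chr6:122317731-122340561) was at 29.6 and 29.2 FPKM in PGCs, 78.7 and 92.5 FPKM in iPGCs, 117 and 72.3 FPKM in PGCLCs, and 153 and 103 FPKM in EGCs. All 6 cultured libraries were above both PGC libraries, with EGCs above iPGCs and PGCLCs overlapping both. The log2 difference from PGCs was 2.06 ± 0.42 for EGCs (95% interval 1.11 to 3.01; limma adjusted p = 0.0703), 1.61 for PGCLCs (adjusted p = 0.0937) and 1.51 for iPGCs (adjusted p = 0.119). Relative to all tested genes the PGCLC and iPGC differences of Phc1 were 1.18 and 1.04. Without PGC library 1 the EGC difference was 2.07, and without PGC library 2 it was 2.05, so the size of the Phc1 difference did not rest on either. With quantile normalization the EGC difference was 2.34 (limma adjusted p = 0.0298). Under the other settings of pseudocount, filter, normalization or variance trend its adjusted p lay between 0.0567 and 0.364.

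Cbx7, the chromodomain subunit typical of self-renewing stem cells, was highest in the EGC lines. Cbx7 (chr15:79915807-79971119) was at 139 and 186 FPKM in EGCs, 38.2 and 29.1 FPKM in iPGCs, 24.5 and 18.6 FPKM in PGCLCs, and 95 and 14.8 FPKM in PGCs. The EGC libraries were above the 6 others, and the PGC libraries spanned the whole range of the iPGCs and PGCLCs. The difference of EGCs was 2.86 ± 0.75 from PGCLCs (limma adjusted p = 0.196), 2.24 from iPGCs (adjusted p = 0.37) and 2.06 from PGCs (adjusted p = 0.219). The Cbx7 difference of EGCs from PGCs was 3.36 without PGC library 1 (adjusted p = 0.0376) and 0.76 without PGC library 2 (adjusted p = 0.41), so it depends on which PGC library is used. The difference from PGCLCs uses no PGC library, but its standard error comes from all groups: it was 0.40 without PGC library 1 (adjusted p = 0.0442) and 0.39 without PGC library 2 (adjusted p = 0.0411), in place of 0.75.

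Pcgf2 and Bmi1 are alternative Pcgf partners in canonical PRC1. Pcgf2 was at 11.7 and 42.3 FPKM in PGCs, 89.4 and 68 FPKM in iPGCs, 88.9 and 50.4 FPKM in PGCLCs, and 47.1 and 41.0 FPKM in EGCs. Its iPGC difference from PGCs was 1.75 ± 0.61 (limma adjusted p = 0.172), against 0.87 without PGC library 1 and 2.64 without PGC library 2. Pcgf2 was the more abundant partner in every library: the log2 ratio of Pcgf2 to Bmi1 was 3.95 and 3.34 in PGCs and between 5.13 and 6.45 in the 6 cultured libraries. With 1 added to each FPKM value, as for the other ratios given here, it was 2.86 and 3.06 in PGCs and between 4.64 and 5.11 in culture. The PGC ratios were thus below all the others, although Bmi1 was at 4.18 FPKM or less in every library.

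The remaining PRC1 genes varied mostly within groups. Cbx2, another chromodomain subunit, was at 5.90 and 5.56 FPKM in PGCs, 2.75 and 5.43 FPKM in iPGCs, 5.51 and 7.31 FPKM in PGCLCs, and 18.3 and 2.32 FPKM in EGCs, so that the lines 4 and 7 held both extremes. Pcgf1, the partner of variant PRC1, was listed at 0 in PGC library 1 and iPGC library 1 but at 22.8 and 5.51 FPKM in their replicates, and reached 38.8 FPKM in PGCLC library 1. The catalytic subunit Rnf2 stayed within 5.62 to 13 FPKM and exceeded its paralog Ring1 in all 8 libraries, with a log2 ratio from 0.004 to 2.90. Phc2 lay between 2.36 and 16.6 FPKM. No PRC1 gene passed the threshold with limma in any comparison, with 2 of 9 at an unadjusted p under 0.05 in each group against PGCs, beside 17.2% of all tested genes for EGCs and 19.5% each for iPGCs and PGCLCs.

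**Figure D3:**
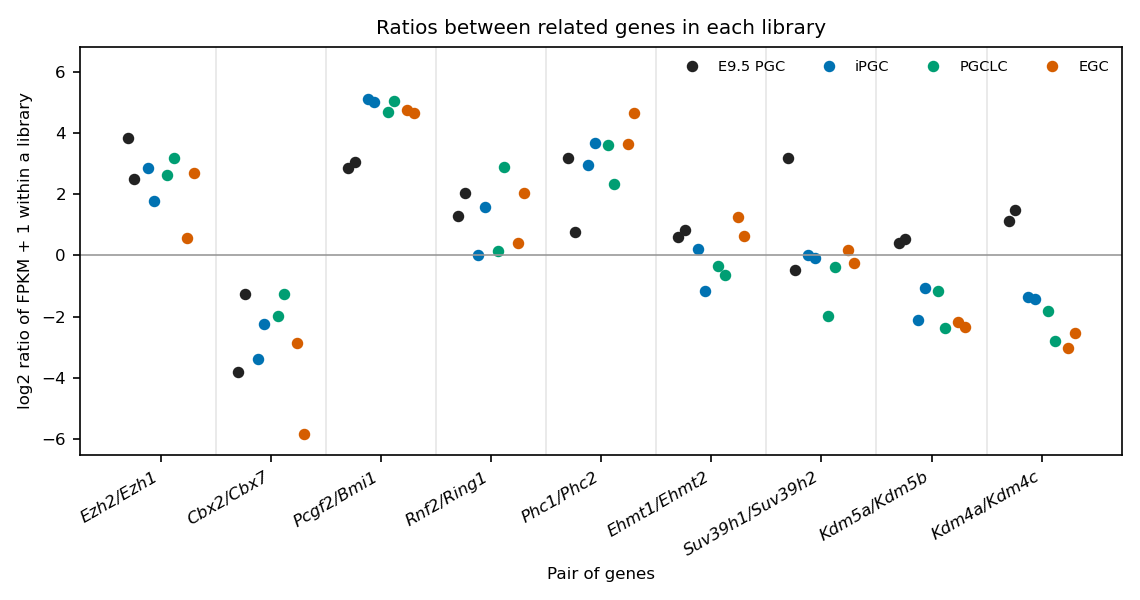
Log2 ratio of FPKM + 1 (y axis) within each library for 9 paralog pairs (x axis); points are libraries, marked by group. The ratios of Pcgf2 to Bmi1, Kdm5a to Kdm5b and Kdm4a to Kdm4c separate the 2 PGC libraries from the 6 cultured ones.

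Of the 9 H3K9 genes, 1 was higher and 2 were lower without overlap of libraries in EGCs than in PGCs, beside 24.1% and 20% of all tested genes. In iPGCs 2 were higher and 2 lower (39.4% and 13.1% of all genes), and in PGCLCs 2 were higher and 4 lower (33.5% and 11.8%). Ehmt1, a subunit of the G9a-GLP enzyme that places H3K9 dimethylation, was lowest in iPGCs. Ehmt1 (chr2:24789928-24919614) was at 25.1 and 51.7 FPKM in PGCs, 11.3 and 10.6 FPKM in iPGCs, 20.7 and 20.8 FPKM in PGCLCs, and 25.3 and 27.3 FPKM in EGCs. Both iPGC libraries were below the 6 others, and the PGC libraries differed from each other by more than iPGCs, PGCLCs and EGCs did within their groups. The iPGC difference from PGCs was -1.63 ± 0.49 (95% interval -2.75 to -0.52; limma adjusted p = 0.136), or -2.10 relative to all tested genes. It was -2.14 without PGC library 1 and -1.12 without PGC library 2. EGCs against iPGCs gave 1.19 for Ehmt1 (adjusted p = 0.452).

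Ehmt2, the G9a subunit itself, was at 16.2 and 28.3 FPKM in PGCs, 9.74 and 24.8 FPKM in iPGCs, 26.5 and 32.9 FPKM in PGCLCs, and 9.92 and 17.3 FPKM in EGCs. The log2 ratio of Ehmt1 to Ehmt2 was above 0 in both PGC libraries (0.60 and 0.85) and both EGC libraries (1.27 and 0.63), below 0 in both PGCLC libraries (-0.34 and -0.64), and 0.20 and -1.15 in iPGCs. Suv39h1, which places H3K9 trimethylation at heterochromatin, was at 37.4 and 10.1 FPKM in PGCs, 10.8 and 8.48 FPKM in iPGCs, 2.80 and 8.59 FPKM in PGCLCs, and 4.11 and 6.51 FPKM in EGCs. PGC library 1 stood above the 7 others, and the EGC difference from PGCs was -1.74 ± 0.75 (limma adjusted p = 0.285), against -0.84 without PGC library 1 and -2.63 without PGC library 2. Its size thus depends on which PGC library is kept, library 1 being the one with blood and yolk sac markers. Its paralog Suv39h2 lay between 3.28 and 14.3 FPKM, and Setdb1, the H3K9 methyltransferase recruited by Trim28, between 9.47 and 23.0 FPKM.

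The readers of methylated H3K9, the HP1 proteins, had different orders. Cbx5 (HP1 alpha) was at 62.9 and 39.8 FPKM in PGCs, 26.7 and 27.2 FPKM in iPGCs, 13.3 and 38.2 FPKM in PGCLCs, and 72 and 68.7 FPKM in EGCs, with both EGC libraries above the 6 others. EGCs differed from PGCLCs by 1.59 ± 0.54 for Cbx5 (limma adjusted p = 0.274), against 0.86 without PGCLC library 1 and 2.31 without PGCLC library 2. Cbx1 (HP1 beta) was at 41.4 and 19.7 FPKM in PGCs, 57.0 and 42.1 FPKM in iPGCs, 98.2 and 56.7 FPKM in PGCLCs, and 18.1 and 56.1 FPKM in EGCs, with both PGCLC libraries above both PGC and both EGC libraries. Cbx3 (HP1 gamma) was at 4.93 and 7.61 FPKM in PGCs, 14.4 and 9.63 FPKM in iPGCs, 9.45 and 8.18 FPKM in PGCLCs, and 6.77 and 9.49 FPKM in EGCs. Trim28 was at 722 and 708 FPKM in PGCs against 429 and 412 FPKM in EGCs, a difference of -0.76 ± 0.36 (95% interval -1.58 to 0.05; adjusted p = 0.326), with iPGCs at 460 and 764 FPKM and PGCLCs at 599 and 409 FPKM. No H3K9 gene passed the threshold with limma in any comparison, and 1 of 9 had an unadjusted p under 0.05 in each group against PGCs, on the lower side each time, where 7.6% of all tested genes were lower at that p for EGCs, 3.54% for iPGCs and 3.76% for PGCLCs.

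The demethylases held the largest estimated differences from PGCs in EGCs and PGCLCs, with Kdm2b in the lead in both. Kdm5b, which removes H3K4 trimethylation, was at 22.5 and 11.2 FPKM in PGCs, 74.2 and 41.5 FPKM in iPGCs, 61.2 and 69.6 FPKM in PGCLCs, and 46.3 and 56.7 FPKM in EGCs. All 6 cultured libraries exceeded both PGC libraries; both EGC libraries were below both PGCLC libraries, and the iPGC libraries overlapped with each of the other cultured groups. The log2 difference of Kdm5b (chr1:134560171-134635285) from PGCs was 1.97 ± 0.49 for PGCLCs (limma adjusted p = 0.0876), 1.74 for iPGCs (adjusted p = 0.122) and 1.63 for EGCs (adjusted p = 0.154). Without PGC library 1 the 3 Kdm5b differences were 2.44, 2.21 and 2.10, and without PGC library 2 they were 1.5, 1.27 and 1.16. Its paralog Kdm5a was at 30.4 and 16.7 FPKM in PGCs, 16.7 and 19.4 FPKM in iPGCs, 27 and 12.8 FPKM in PGCLCs, and 9.57 and 10.6 FPKM in EGCs. Within each library the log2 ratio of Kdm5a to Kdm5b was 0.42 and 0.54 in PGCs and between -2.35 and -1.06 in the 6 cultured libraries, so Kdm5a was the more abundant of the pair in PGCs and Kdm5b in culture.

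The Kdm4 genes, which remove methyl groups from H3K9 and H3K36, diverged. Kdm4c (chr4:74242497-74405860) was at 6.65 and 2.50 FPKM in PGCs, 8.89 and 9.85 FPKM in iPGCs, 18.1 and 39.3 FPKM in PGCLCs, and 33.9 and 21.7 FPKM in EGCs. Its difference from PGCs was 2.44 ± 0.61 for EGCs (limma adjusted p = 0.106), 2.42 for PGCLCs (adjusted p = 0.0896) and 1.00 for iPGCs (adjusted p = 0.402). Without PGC library 1 they were 3.01, 2.99 and 1.57, and without PGC library 2 they were 1.88, 1.86 and 0.44. Kdm4a (chr4:118136957-118180043) had the opposite order, at 15.8 and 8.71 FPKM in PGCs, 2.89 and 3.02 FPKM in iPGCs, 4.51 and 4.88 FPKM in PGCLCs, and 3.29 and 2.90 FPKM in EGCs. It was the only one of the 38 with both PGC libraries above all 6 others, and its differences were -1.64 ± 0.57 for EGCs (adjusted p = 0.202), -1.69 for iPGCs (adjusted p = 0.162) and -1.17 for PGCLCs (adjusted p = 0.311). Without PGC library 1 the Kdm4a differences were -1.25, -1.30 and -0.77, and without PGC library 2 they were -2.04, -2.09 and -1.56. The log2 ratio of Kdm4a to Kdm4c, a pair chosen after its values were seen, was 1.13 and 1.47 in PGCs and between -3.02 and -1.35 in culture. Kdm4b was at 0.0519 and 0.521 FPKM in PGCs, 4.02 and 1.19 FPKM in iPGCs, 1.89 and 16.1 FPKM in PGCLCs, and 4.28 and 4.04 FPKM in EGCs.

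Kdm2b, which binds unmethylated CpG islands and brings variant PRC1 to them, showed the widest spread between the EGC lines. Kdm2b (chr5:122870665-122989823) was at 1.44 and 0.994 FPKM in PGCs, 8.87 and 9.27 FPKM in iPGCs, 13.3 and 14.8 FPKM in PGCLCs, and 77.6 and 7.68 FPKM in EGC lines 4 and 7. The PGC libraries were the lowest of the 8, and line 4 was far above line 7. The difference from PGCs was 3.56 ± 0.92 for EGCs (limma adjusted p = 0.109), 2.77 for PGCLCs (adjusted p = 0.15) and 2.19 for iPGCs (adjusted p = 0.238). It was 3.71 for EGCs without PGC library 1. Without line 4 the Kdm2b difference of EGCs was 1.98, and without line 7 it was 5.15.

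Kdm6b, an H3K27 demethylase that opposes PRC2, was lowest in PGCLCs. It was at 4.85 and 6.96 FPKM in PGCs, 8.62 and 7.22 FPKM in iPGCs, 1.5 and 3.10 FPKM in PGCLCs, and 4.37 and 23.9 FPKM in EGCs. EGCs differed from PGCLCs by 1.85 ± 0.78 for Kdm6b (limma adjusted p = 0.343), against 0.75 without EGC line 7 and 2.96 without line 4. Kdm1a, the LSD1 enzyme that removes H3K4 mono- and dimethylation, was at 52.6 and 71.3 FPKM in PGCs, 92.0 and 107 FPKM in iPGCs, 128 and 67.6 FPKM in PGCLCs, and 56.6 and 45.3 FPKM in EGCs. Kdm3a, an H3K9 demethylase, lay between 5.78 and 17.8 FPKM, with both PGCLC libraries above both iPGC libraries and the other pairs of groups overlapping. No demethylase passed the threshold with limma; at an unadjusted p under 0.05 there were 5 of 9 for EGCs (4 higher, 1 lower), 3 for iPGCs (2 higher, 1 lower) and 4 for PGCLCs (4 higher) against PGCs. Of all tested genes 9.6% were higher and 7.6% lower at that p for EGCs, 15.9% and 3.54% for iPGCs, and 15.7% and 3.76% for PGCLCs.

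Ash2l, a core subunit of the H3K4 methyltransferase complexes, was higher in the stem-cell derived groups than in EGCs. Ash2l (chr8:25815996-25847694) was at 33.6 and 35.5 FPKM in PGCs, 80.5 and 87.5 FPKM in iPGCs, 84.7 and 52.7 FPKM in PGCLCs, and 16.5 and 32.6 FPKM in EGCs. The 4 iPGC and PGCLC libraries were above the 4 PGC and EGC libraries, the same division as that of strain and passage, which cannot be told apart from it. EGCs differed from iPGCs by -1.81 ± 0.47 (limma adjusted p = 0.293) and from PGCLCs by -1.48 (adjusted p = 0.244), or by -1.40 and -1.10 relative to all tested genes, whose medians were -0.40 and -0.38. Setd2, the enzyme that trimethylates H3K36, was at 43.5 and 52.7 FPKM in PGCs, 49.5 and 21.1 FPKM in iPGCs, 71.0 and 38.1 FPKM in PGCLCs, and 24.6 and 16.1 FPKM in EGCs. Prmt5, the arginine methyltransferase that works with Prdm1 in the germ line, was at 91.5 and 44.1 FPKM in PGCs, 55.2 and 67.0 FPKM in iPGCs, 107 and 91.2 FPKM in PGCLCs, and 30.3 and 86.3 FPKM in EGCs. Wdr5, a scaffold of the same H3K4 complexes, lay between 14.6 and 21.4 FPKM except in PGC library 2, at 2.93 FPKM.

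**Figure D4:**
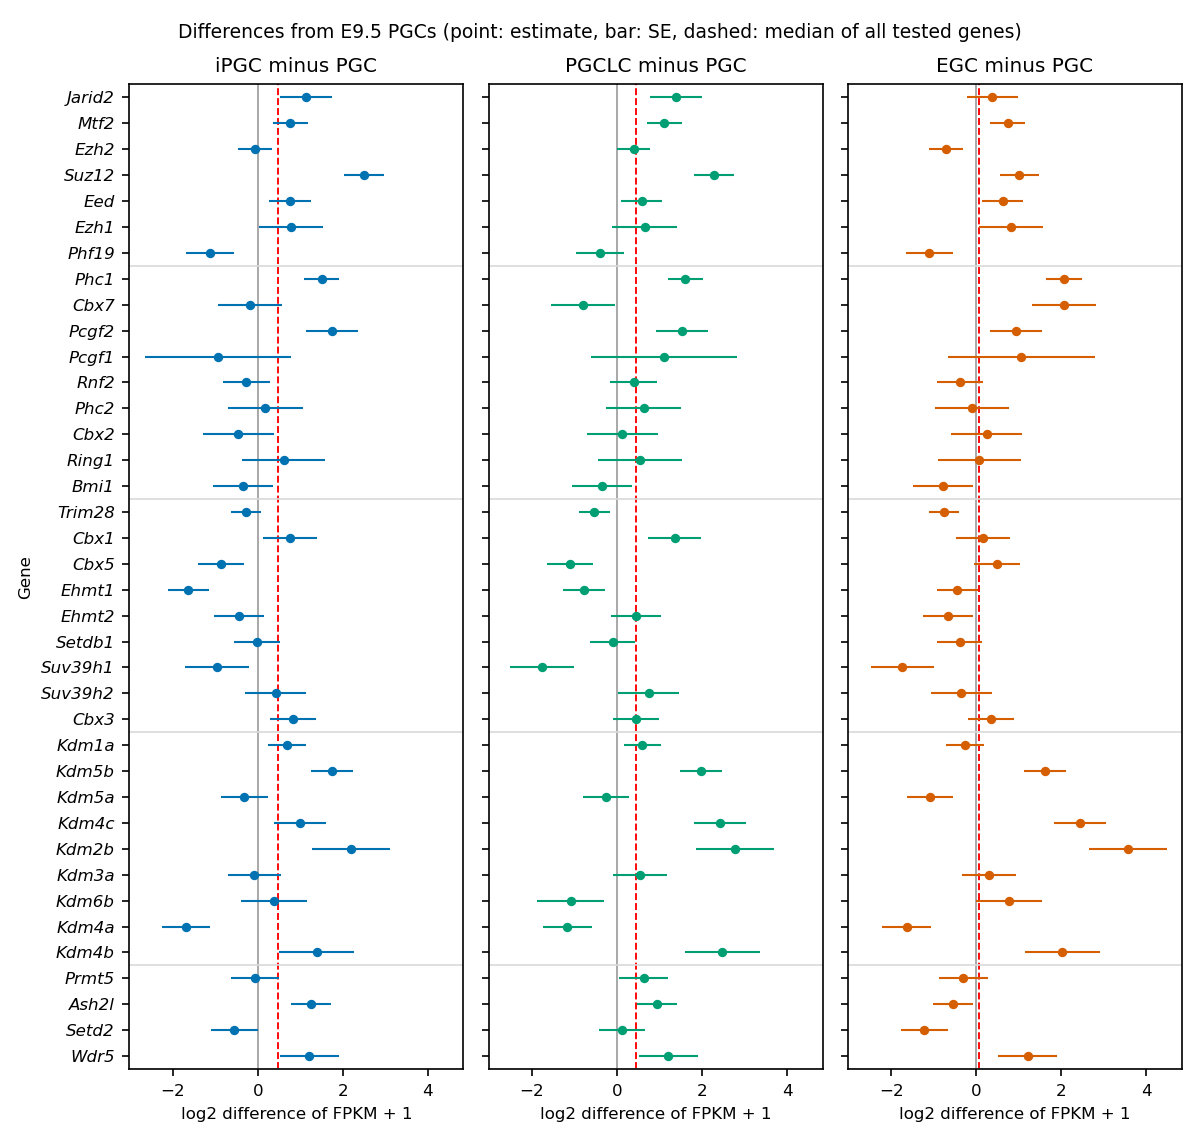
Log2 difference from E9.5 PGCs (x axis, on the log2(FPKM + 1) scale) with its standard error for the 38 tested genes, in one panel each for EGCs, iPGCs and PGCLCs; the dashed line is the median over all tested genes. Most genes lie within a few standard errors of the dashed line, with Suz12, Phc1, Kdm5b, Kdm2b and Kdm4c to its right and Kdm4a to its left.

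Calls were rare over all tested genes. With limma, 0 of the 38 passed an adjusted p of 0.05 for EGCs against PGCs, where 0.74% of all tested genes did, 0 for iPGCs against PGCs (0.794%) and 0 for PGCLCs against PGCs (1.06%). Likewise 0 of 38 passed for PGCLCs against iPGCs (0.018%), for EGCs against iPGCs (0.117%), for EGCs against PGCLCs (0.0993%) and in the F test over the 4 groups (0.505%). At an unadjusted p under 0.05 there were 8 of 38 for EGCs against PGCs (17.2% of all genes), made up of 6 higher (9.6%) and 2 lower (7.6%). There were 8 for iPGCs against PGCs (19.5%), with 6 higher (15.9%) and 2 lower (3.54%), and 10 for PGCLCs against PGCs (19.5%), with 9 higher (15.7%) and 1 lower (3.76%). For PGCLCs against iPGCs there was 1 (4.68% of all genes), Kdm4c, which was higher (1.99%), and 0 were lower (2.69%). EGCs against iPGCs gave 6 (10.3%), with 4 higher (1.67%) and 2 lower (8.64%), EGCs against PGCLCs gave 7 (13.9%), with 3 higher (2.73%) and 4 lower (11.1%), and the F test gave 8 (19.2%). The 4 genes higher in EGCs than in iPGCs were Cbx7, Cbx5, Ehmt1 and Kdm4c, and the 3 higher than in PGCLCs were Cbx7, Cbx5 and Kdm6b; none of them passed the adjusted threshold. The 3 comparisons with PGCs share the same 2 PGC libraries.

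The size of difference that this design could call was large. The smallest absolute log2 difference called among all tested genes was 2.44 for EGCs, 2.52 for iPGCs and 2.45 for PGCLCs against PGCs, and it was 3.78 for EGCs against iPGCs. Among the 38 genes the median standard error was 0.58, and the largest absolute difference was 3.56 for EGCs, 2.50 for iPGCs and 2.77 for PGCLCs against PGCs. A difference that misses the threshold does not show that the groups were alike.

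The number of the 38 genes whose libraries did not overlap between 2 groups is read here against the share over all tested genes. For EGCs against PGCs 11 genes were higher without overlap (24.1% of all genes were) and 9 lower (20%), for iPGCs 15 higher (39.4%) and 5 lower (13.1%), and for PGCLCs 14 higher (33.5%) and 6 lower (11.8%). Between the stem-cell derived groups 12 genes (31.6%) were higher in PGCLCs than in iPGCs, beside 17.3% of all genes, and 4 (10.5%) were lower, beside 19.6%. EGCs had 6 genes above (10.8% of all genes) and 12 below iPGCs (39.5%), and 4 above (11.8%) and 16 below PGCLCs (34.2%). In the other comparisons the shares of the 38 genes were 28.9% and 23.7% for EGCs, 39.5% and 13.2% for iPGCs and 36.8% and 15.8% for PGCLCs, higher and lower than PGCs in turn, close to those over all genes. Kdm2b, Kdm4b, Kdm4c, Kdm5b, Mtf2, Phc1 and Suz12 had all 6 cultured libraries above both PGC libraries, 7 of 38 or 18.4%, beside 15.2% of all tested genes. Kdm4a alone had all 6 below, 1 of 38 or 2.63%, beside 6.05%. Both EGC libraries were the highest of the 8 for Cbx5 and Cbx7 (3.08% of all genes) and the lowest for Ash2l, Ezh2 and Kdm5a (9.11%). Both iPGC libraries were the highest for Cbx3 and Suz12 (6.31%) and the lowest for Ehmt1 (1.15%), and both PGCLC libraries the highest for Ezh2 and Rnf2 (6.57%) and the lowest for Kdm6b (1.82%).

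By class, the median log2 difference from PGCs relative to all tested genes was on the positive side for PRC2 (0.56 for EGCs, 0.30 for iPGCs and 0.21 for PGCLCs) and for the demethylases (0.70, 0.22 and 0.16). It was on the negative side for the H3K9 genes (-0.46, -0.74 and -0.54). The PRC1 genes had medians of 0.19 for EGCs, -0.65 for iPGCs and 0.11 for PGCLCs, and the 4 H3K4, H3K36 and arginine genes had -0.49, 0.11 and 0.34. Over all 38 genes it was 0.14, -0.19 and 0.12. These medians describe the lists and carry no test.

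The wider pathway was followed in 74 further genes of the same families, of which 72 were measured and 69 tested. With limma, 0 of the 69 passed the threshold in any comparison. Against PGCs, 14 had an unadjusted p under 0.05 for EGCs (4 higher, 10 lower), 13 for iPGCs (6 higher, 7 lower) and 14 for PGCLCs (6 higher, 8 lower), beside 17.2%, 19.5% and 19.5% of all tested genes. The lowest adjusted p for EGCs was 0.0662, that of Kdm5d, the Y-linked paralog of Kdm5b, at 12 and 5.80 FPKM in PGCs, 0.339 and 1.07 FPKM in iPGCs, 2.31 and 0.905 FPKM in PGCLCs, and 0 and 0.0897 FPKM in EGCs. Kdm5d is carried by male cells alone, and the sex of embryos and lines was not used here. Uty, the Y-linked paralog of the H3K27 demethylase Kdm6a, was at 3.45 and 1.62 FPKM in PGCs, 0.575 and 0.731 FPKM in iPGCs, 0.767 and 3.78 FPKM in PGCLCs, and 0 and 10.9 FPKM in EGCs, an order unlike that of Kdm5d. Wdr77, the partner of Prmt5, was at 77.9 and 74.1 FPKM in PGCs, 43.0 and 41.9 FPKM in iPGCs, 43.2 and 39.1 FPKM in PGCLCs, and 29.7 and 37.4 FPKM in EGCs, with an EGC difference from PGCs of -1.17 ± 0.39 (adjusted p = 0.187).

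Genes known as Polycomb targets in stem cells were mostly under 1 FPKM in every group. Of 17 such developmental regulators measured, between 1 and 4 reached 1 FPKM in a library, and 13 were below the filter. Of all 20153 identifiers, between 7991 and 10039 reached 1 FPKM in a library. The 4 tested were Cdx2, Eomes, Hand1 and Pax6, and 0 passed the threshold with limma. At an unadjusted p under 0.05 there was 1 for EGCs against PGCs (17.2% of all tested genes) and 0 for iPGCs and PGCLCs (19.5% each). EGCs gave 1 against iPGCs (10.3%) and 2 against PGCLCs (13.9%). PGCLCs against iPGCs gave 0 (4.68%) and the F test gave 1 (19.2%). Pax6, a neural regulator, was at 5.29 and 4.80 FPKM in the EGC lines and at 1.24 FPKM or less elsewhere. Eomes reached 9.77 FPKM in PGCLC library 1 and Hand1 10.5 FPKM in PGCLC library 2, both far above their replicates.

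Some of the genes share exon sequence with neighbours, and the kit's strand handling was not given in the sources used here. In the GENCODE M21 annotation 13 of the 39 had exon bases that another gene's exons also cover. Suv39h1 had the largest share, 14.6% with Gm14820, followed by Suv39h2 at 10.0% and Kdm2b at 8.7%, and reads from those bases cannot be assigned to 1 gene. The share was 3.6% for Suz12 and 1.5% for Cbx7.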

How the data were processed

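RNA was measured by amplified RNA-seq (Ovation RNA-Seq V2, ERCC spike-ins, 50-base single-end reads, 8 libraries over 2 lanes), per the labels' protocols. The authors deposited one table of FPKM values per gene. TopHat2, Cufflinks and the builds GRCm38 and mm10 are named in the submitters' processing notes, without versions; how the FPKM values were filtered was not stated. Of 20171 rows, 18 repeated an identifier and the row with the highest mean was kept.

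Values were taken as log2(FPKM + 1) for genes that reached 1 FPKM in 2 or more libraries. limma 3.58.1 (R 4.3.3; trended, robust variance; 4 residual degrees of freedom) fitted all 8 libraries without a replicate block, and p-values were adjusted by Benjamini-Hochberg over 11083 genes within each comparison. The fit was tested on simulated data. The p-values measure the spread between these libraries alone. Depth was approximated from the lowest values of each library, taking the 5th percentile over genes with 1 transcript.

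Values in every library are given for up to 5 genes per direction and comparison with the largest difference, no overlap and a mean of at least 5 FPKM, and for genes below the filter; the other genes are given by range, or in full where a comparison is described. The genes, lists and rules were chosen with earlier results of these data known.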

Additional observations from a re-analysis of the deposited data

How the results depend on the processing

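The finding that none of the 38 genes passed the threshold was recomputed with pseudocounts of 0.1 and 5, no filter and a filter at 5 FPKM, quantile normalization, equal library medians, no variance trend, the compared groups alone, and each library left out. The count for iPGCs against PGCs became 1 with a pseudocount of 0.1 (Suz12, limma adjusted p = 0.0466) and 1 with the filter at 5 FPKM (Suz12, adjusted p = 0.0483). The count for EGCs against PGCs became 1 with quantile normalization (Phc1, adjusted p = 0.0298). Leaving out 1 library gave between 0 and 1 for EGCs against PGCs (Cbx7, without PGC library 1), iPGCs and PGCLCs against PGCs (Suz12, without PGC library 2), EGCs against PGCLCs (Cbx7, without either PGC library) and the F test (Cbx7, adjusted p = 0.0489 without PGC library 2), and 0 for PGCLCs against iPGCs and EGCs against iPGCs. Each of these calls came from 1 gene, and the cause was not tested. Of 956 alternative values of the 58 named differences, 948 kept their direction and side of the threshold, 8 newly passed it and 0 reversed. This tally was largely fixed in advance. The 58 were chosen as large differences without overlap of libraries. Leaving out a library or changing the pseudocount therefore could not reverse them. Leaving out a library outside the compared groups left the estimate unchanged. None of the 58 passed in the fit reported, so keeping the side of the threshold means only that they were still not called.

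Over all genes, calls ranged widely: with the compared groups alone 0 genes were called in each comparison with PGCs, and with no filter 8 for EGCs, 9 for iPGCs and 4 for PGCLCs, against 82, 88 and 117 in the fit reported. With a pseudocount of 0.1 the counts were 110, 166 and 183.

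A fit with replicate number as a replicate block used the 6 PGC, iPGC and PGCLC libraries; it gave 0 of the 38 genes in each of their 3 comparisons, and 10, 2 and 0 calls over all genes for iPGCs against PGCs, PGCLCs against PGCs and PGCLCs against iPGCs. Deviations of same-numbered libraries correlated across genes at 0.00707, -0.0295 and 0.0582. Each group gives a single replicate difference, so these values cannot decide whether the numbers mark a shared batch or day. No label says what the numbers mark. The EGC libraries carry other numbers, so no block fit was made for EGC comparisons or the F test. Depth is known only approximately; iPGC library 1 is the shallowest, and small values there, such as Bmi1 at 1.61 FPKM, rest on roughly 17.4 reads.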
